A study of Homo sapiens with 24 samples.

Results

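The comparison set A549 MSTRG.2513.6 KO against A549 MSTRG.4401.1 KO, taken by their labels as libraries S17, S18 and S19 against S23, S24 and S25, without wild-type cells. These are 6 of the 24 samples of the series. A549 is a human lung adenocarcinoma cell line. In each knockout (KO) the DNA-binding domain (DBD) of a noncoding transcript, MSTRG.2513.6 or MSTRG.4401.1, was deleted with CRISPR/Cas9, and no other treatment was given. Both groups derive from A549 and differ by label in the transcript whose DBD was removed. Whether their genomes are otherwise alike was not tested. The labels do not say whether a group is 1 clone or several, nor whether its 3 libraries came from separate cultures, so p-values measure the spread between these libraries. The 2 transcripts have no row of their own among the gene symbols, so their loss was not checked here. Total RNA was depleted of ribosomal RNA before sequencing, and the series also holds wild-type A549 libraries (WT B, S20 to S22), which are given below as reference levels only.

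Noncoding transcripts can bind DNA through a DBD by forming RNA:DNA triplexes, and a study of this kind asks which genes depend on that domain. A549 cells carry features of alveolar epithelium together with a strong secreted, liver-like programme and are active for the antioxidant factor NRF2. Epithelial and mesenchymal states, signalled by cadherins and by matrix genes, are known to vary among cultures of this line.

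The library totals ran from 46733426 to 63893238 counts in MSTRG.2513.6 KO and from 25799359 to 33205007 in MSTRG.4401.1 KO. Pairs of libraries within a group correlated at Pearson's r of 0.9901 to 0.9949 on log2(CPM + 1), where CPM is counts divided by the library total in units of 1e+06, and pairs across the groups at 0.9687 to 0.9791 (across genes, which are not independent replicates). No 2 libraries agreed within sampling noise. The genes of the mitochondrial genome took 1.59% to 2.02% of the counts in MSTRG.2513.6 KO and 3.50% to 7.87% in MSTRG.4401.1 KO. The listed small nonpolyadenylated and nucleolar RNAs took at most 11.8% in a library of MSTRG.2513.6 KO and at least 12.8% in a library of MSTRG.4401.1 KO. In bulk RNA, fewer cells of a type and less RNA per cell cannot be told apart. CDKN2A, which A549 is known to lack, had 0 counts in all 6 libraries. Of the markers known to be high in A549, all 16 were tested, and their summed level was 16430 to 20600 CPM over the MSTRG.2513.6 KO libraries, 17340 to 23690 CPM over the MSTRG.4401.1 KO ones, although 1 was higher in MSTRG.2513.6 KO (CPS1), against 6 in MSTRG.4401.1 KO (FGA, FGB, FGG, KRT18, TM4SF4, GPX2). Of 10 white blood cell markers 3 were tested and 0 called by edgeR (1 at an unadjusted p under 0.05, with 1 called by DESeq2, 1 without S17 and 1 without S25), and 2 had 0 counts in all 6 libraries. Of 11 markers of fibroblasts and endothelium 2 were tested and 1, PDGFRA, was higher in MSTRG.2513.6 KO. The other went the opposite way and was not called, although both had an unadjusted p under 0.05 in the edgeR test. With upper-quartile factors and with protein-coding genes alone, 1 marker was called higher in MSTRG.4401.1 KO. The summed level of these markers was 9.985 to 16.58 CPM over the MSTRG.2513.6 KO libraries, 21.74 to 25.66 CPM over the MSTRG.4401.1 KO ones.

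Between the knockouts 4181 of 25161 genes tested were called, 16.6%, with a false discovery rate below 0.1 and a log2(fold change) beyond 1 in either direction in the edgeR quasi-likelihood test after Benjamini-Hochberg correction. The MSTRG.2513.6 KO side held 1446 of these, 5.75% of the genes tested, and the MSTRG.4401.1 KO side 2735, 10.9%. Positive log2(fold change) values stand for a higher level in MSTRG.2513.6 KO throughout, and a value in parentheses with its standard error is a log2(fold change). The 3 libraries of each group did not overlap for 4046 of the called genes. The call thresholds favour such genes, and the share over all genes tested was not computed. The median |log2(fold change)| was 0.53 and the 90th percentile 1.48.

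The direction of the calls differed by type of gene. Among protein-coding genes 1183 of 14362 were higher in MSTRG.2513.6 KO, 8.24%, and 939 were higher in MSTRG.4401.1 KO, 6.54%, with a median log2(fold change) of 0.22. Among long noncoding RNA genes 64 of 1550 were higher in MSTRG.2513.6 KO, against 286 in MSTRG.4401.1 KO (median -0.44), among symbols that are only clone names 148 and 963 of 6112 (median -0.52), and among pseudogenes 24 and 331 of 1885 (median -0.56). The smaller libraries with more mitochondrial and small RNA were the MSTRG.4401.1 KO ones, and the part of that difference in the noncoding calls was not tested. The balance of calls moved with scaling. With upper-quartile factors 992 genes were higher in MSTRG.2513.6 KO, against 3920 in MSTRG.4401.1 KO, 20.2% against 34.6% of calls on the MSTRG.2513.6 KO side. When nuclear protein-coding genes alone were normalised and fitted, a setting chosen after seeing the data, 736 were higher in MSTRG.2513.6 KO, against 1347 in MSTRG.4401.1 KO, and the median moved from 0.22 to -0.02. Differences close to the threshold therefore depend on scaling, and the median of 0.22 is the level against which the lists below are given.

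**Figure D1:**
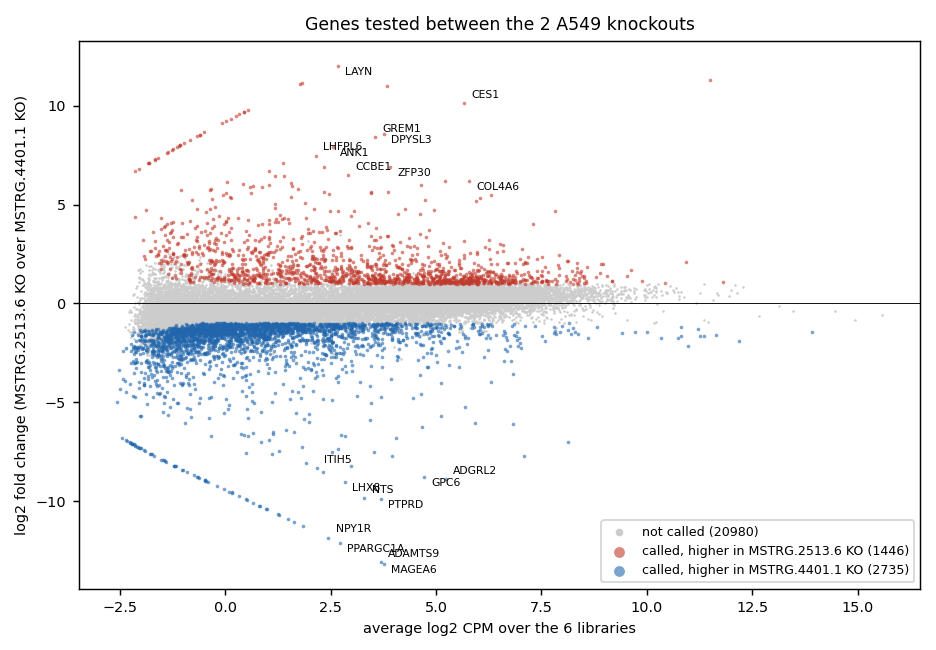
Each point is a gene of the 6 A549 knockout libraries, with the average log2 CPM on the x axis and the log2(fold change), MSTRG.2513.6 KO over MSTRG.4401.1 KO, on the y axis. Called genes are coloured (1446 higher in MSTRG.2513.6 KO, 2735 higher in MSTRG.4401.1 KO), 19 genes with the largest differences are named, and the points on straight diagonal lines are genes with 0 counts in all libraries of a group.

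Several genes that were expressed in MSTRG.2513.6 KO were at or near 0 in MSTRG.4401.1 KO. LAYN encodes layilin, a membrane receptor for hyaluronan. It stood at 14.7, 11.6 and 9.31 CPM in MSTRG.2513.6 KO and had 0 counts in all 3 MSTRG.4401.1 KO libraries, at least 111-fold lower when 3 counts per library are taken as the floor. CES1, a liver-type carboxylesterase that hydrolyses esters and drugs, measured 89.7, 106 and 92.4 CPM in MSTRG.2513.6 KO, against 0.241, 0 and 0 CPM in MSTRG.4401.1 KO. The groups were far apart for both genes (CES1 log2(fold change) 10.11 (standard error 0.528)), and the CES1 pseudogene CES1P1 behaved alike with 6.23, 6.71 and 5.76 CPM against 0 counts, so reads of the near-identical pair could have been split between them.

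GREM1, a secreted antagonist of bone morphogenetic proteins (BMPs), measured 24.5, 21.8 and 19.3 CPM in MSTRG.2513.6 KO, against 0.181, 0 and 0 CPM in MSTRG.4401.1 KO, a log2(fold change) of 8.39 (standard error 0.597). COL4A6, a basement membrane collagen chain, was at 91.6, 111 and 109.9 CPM against 1.42, 2.56 and 0.8 CPM (6.18, standard error 0.34). Both genes were thus expressed in every MSTRG.2513.6 KO library and low or near 0 in every MSTRG.4401.1 KO library. DPYSL3, a cytoskeletal protein of growth cones and migrating cells, was at 20.5 to 28.7 against 0 to 0.229 CPM. CCBE1, a secreted factor that promotes processing of a lymphatic growth factor, was at 13.1 to 14.8 against 0 to 0.452 CPM. LHFPL6 was at 6.95 to 9.19 against 0 to 0.155 CPM, and the log2(fold change) of these 3 genes was 8.56, 6.49 and 7.47. ANK1, an adaptor between membrane proteins and spectrin, varied most among the MSTRG.2513.6 KO libraries (7.54, 2.603 and 22.8 CPM) and stayed at 0 to 0.152 CPM in MSTRG.4401.1 KO. The adjusted p of these genes lay between 1.38e-05 for CES1 and 0.00209 for ANK1 in the edgeR quasi-likelihood test after Benjamini-Hochberg correction.

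Genes at or near 0 in MSTRG.2513.6 KO and expressed in MSTRG.4401.1 KO included a protease, a coactivator, neuropeptide signalling genes and adhesion receptors. ADAMTS9, a secreted protease that cuts proteoglycans, had 0 counts in MSTRG.2513.6 KO and 31.6, 25.3 and 24.9 CPM in MSTRG.4401.1 KO, at least 500.1-fold higher. MAGEA6, a cancer-testis gene of the X chromosome, had 0 counts against 33.7, 20.8 and 31.4 CPM, at least 526-fold higher. PPARGC1A, the coactivator PGC-1alpha that drives mitochondrial biogenesis, had 0 counts against 15.9, 15.6 and 10.6 CPM, at least 257-fold higher. None of these 3 genes had a single count in MSTRG.2513.6 KO, while every MSTRG.4401.1 KO library expressed them. NPY1R, a receptor for neuropeptide Y, had 0 counts against 9.22 to 14.4 CPM, at least 212-fold higher. KCNT2, a potassium channel, had 0 counts against 7.23 to 8.101 CPM, at least 139.6-fold higher. NPY1R and KCNT2 were named because of such gaps, so their lack of overlap between the groups is not a separate result. NTS, the precursor of the peptide neurotensin, had 3 counts in S17 and none in S18 and S19, against 22.7, 17.1 and 22.4 CPM in MSTRG.4401.1 KO. The ratio of its CPM was 1170, with an exact 95% interval of 399.6 to 5678 that covers counting error only.

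PTPRD, a receptor tyrosine phosphatase, was at 0 to 0.0626 CPM in MSTRG.2513.6 KO, against 26.8, 28.9 and 26.4 CPM in MSTRG.4401.1 KO, a log2(fold change) of -9.87 (standard error 0.535). ADGRL2, an adhesion receptor that binds latrotoxin, was at 0.235, 0.122 and 0.0642 CPM against 86.4, 74.8 and 76.3 CPM (-8.90, standard error 0.328). GPC6, a cell surface heparan sulphate proteoglycan, was at 0 to 0.257 CPM against 51.1 to 60.6 CPM (-8.79, standard error 0.563). These adhesion genes were chosen by a large difference and a lack of overlap between the groups, so neither trait is a separate result. LHX8, a homeobox factor of developing neurons and oocytes, measured 0 to 0.0626 against 14.2 to 16.5 CPM, and ITIH5, an inter-alpha-trypsin inhibitor heavy chain of the matrix, 0 to 0.0699 against 8.799 to 10.7 CPM. VCAN and NTRK3 were chosen after their values were seen. VCAN, the matrix proteoglycan versican, was at 1.68, 1.22 and 0.663 CPM in MSTRG.2513.6 KO, against 333, 253 and 264 CPM for MSTRG.4401.1 KO (-7.72, standard error 0.354). NTRK3, the receptor for neurotrophin-3, was at 3.46, 4.44 and 4.41 CPM against 636, 612 and 507 CPM (-7.01, standard error 0.179). The adjusted p of the genes in this paragraph lay between 1.01e-06 for NTRK3 and 8.49e-05 for ITIH5 in the edgeR quasi-likelihood test after Benjamini-Hochberg correction.

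**Figure D2:**
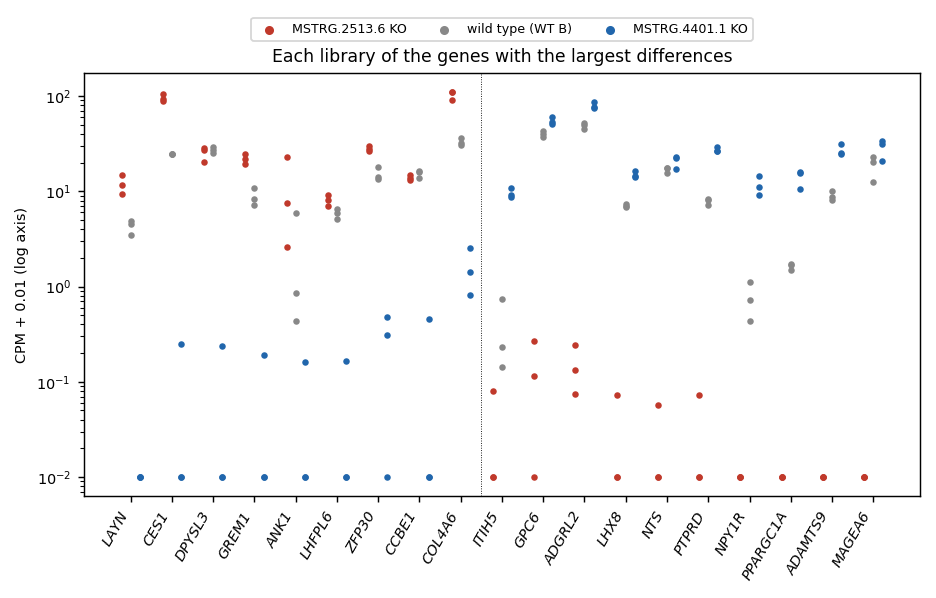
CPM plus 0.01 on a log axis for 9 genes with the highest and 10 with the lowest log2(fold change) among well-expressed called genes, 1 point per library. Red points are MSTRG.2513.6 KO, blue points MSTRG.4401.1 KO and grey points wild-type WT B. The 19 genes were chosen so that no red point overlaps a blue one.

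Some differences followed the order of genes on a chromosome. The clearest run was a cluster of KRAB zinc finger genes on chromosome 19. KRAB zinc finger proteins are DNA-binding repressors that recruit heterochromatin factors, and their genes lie in tandem clusters. Of 36 listed genes tested, 17 were higher in MSTRG.2513.6 KO, against 0 in MSTRG.4401.1 KO, with a median of 0.93. ZNF778, which is listed with them, lies on chromosome 16 and was not called. The 17 genes all lay within chr19:36334453-37817300 (GRCh38), a stretch in which 28 genes were tested and whose limits were set after the values were seen. Several of these genes start head to head, so that their upstream sequences overlap. The 200 bases directly upstream of the annotated start (RefSeq, GRCh38.p14) are shown for ZNF790, which shares 83 of them with ZNF345, for ZNF568, which shares 40 with ZNF829, for ZFP30, and for ZNF461, a neighbour that did not differ and shares 96 with ZNF567. Capitals mark CG dinucleotides, the sites of DNA methylation.
ZNF790 (chr19:36850793-36850992, minus strand): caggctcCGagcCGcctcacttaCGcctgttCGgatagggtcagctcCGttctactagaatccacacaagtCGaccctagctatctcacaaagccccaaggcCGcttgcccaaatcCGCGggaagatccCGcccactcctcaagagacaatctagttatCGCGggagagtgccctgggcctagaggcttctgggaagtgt
ZNF568 (chr19:36916132-36916331, plus strand): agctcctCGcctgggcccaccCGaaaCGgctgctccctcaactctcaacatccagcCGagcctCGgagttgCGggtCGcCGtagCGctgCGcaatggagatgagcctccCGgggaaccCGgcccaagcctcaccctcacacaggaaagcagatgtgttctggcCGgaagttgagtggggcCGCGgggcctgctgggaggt
ZFP30 (chr19:37656262-37656461, minus strand): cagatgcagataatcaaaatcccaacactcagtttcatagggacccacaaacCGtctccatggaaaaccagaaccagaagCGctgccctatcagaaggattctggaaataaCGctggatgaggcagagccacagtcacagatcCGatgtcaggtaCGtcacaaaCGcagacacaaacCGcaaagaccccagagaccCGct
ZNF461 (chr19:36666838-36667037, minus strand): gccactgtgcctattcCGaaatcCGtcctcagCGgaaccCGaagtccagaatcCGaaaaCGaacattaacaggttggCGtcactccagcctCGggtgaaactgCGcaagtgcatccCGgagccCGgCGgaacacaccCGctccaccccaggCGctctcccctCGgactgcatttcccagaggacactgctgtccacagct

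Of 5 head-to-head pairs, both members were called in 3 and neither in 2. ZNF790 was at 3.08, 2.17 and 2.33 CPM in MSTRG.2513.6 KO with 0 counts in MSTRG.4401.1 KO, at least 23.6-fold lower, and its partner ZNF345 was at 1.11, 1.24 and 0.792 CPM with 0 counts in MSTRG.4401.1 KO, at least 9.79-fold lower. ZNF829 was at 2.33, 1.85 and 1.97 CPM with 0 counts in MSTRG.4401.1 KO, at least 19.2-fold lower, and its partner ZNF568 was at 5.05, 3.98 and 5.07 against 0.151, 0 and 0 CPM (6.43, standard error 0.663). All 4 genes were at 0 or nearly so in every MSTRG.4401.1 KO library. ZFP30, farther along the cluster, was at 30.2, 27.6 and 26.7 against 0.301, 0.465 and 0 CPM (6.91, standard error 0.541), and ZNF420 at 7.68, 7.302 and 4.86 against 0.934, 0.271 and 0.648 CPM (3.54, standard error 0.419). ZNF571, near ZFP30, was at 0.891 to 1.71 against 0 to 0.305 CPM. In the pair ZNF461 and ZNF567 the log2(fold change) was -0.01 and 0.09, in the pair ZNF565 and ZNF146 -0.02 and 0.78, and in the pair ZNF569 and ZNF570, whose starts lie 328 bases apart, 1.05 and 1.70. Wild type was also low at the genes with 0 counts in MSTRG.4401.1 KO, at 0.0841 to 0.153 CPM for ZNF790, 0 to 0.32 CPM for ZNF345 and 0.306 to 0.89 CPM for ZNF829, so that MSTRG.2513.6 KO stood highest. The genes at 0 in MSTRG.4401.1 KO lay within an unbroken run of called genes, from ZNF850 to ZNF585B. Genes outside that run that were not called included ZNF567 before it and ZNF875 after it (ZNF875 36.6 to 43.6 against 37.2 to 44.8 CPM). ZNF790, ZNF568, ZFP30 and ZNF461 hold 12, 15, 8 and 15 CG dinucleotides in the 200 bases, and 44.2%, 37.4%, 53.1% and 37.4% of 35116 RefSeq promoters hold at least as many on this window. The 16 called genes with a promoter held a median of 14.5 and the 17 genes not called 16, against 9 over all promoters. Many of these genes are expressed at a low level. When at least 10 counts in every library were required, 8 were called. That filter also drops genes because they are near 0 in MSTRG.4401.1 KO, ZFP30 among them, so it cannot test those genes. In the fit of protein-coding genes alone, which leaves out the antisense genes, 10 were called. The antisense genes ZNF790-AS1, ZNF529-AS1 and ZNF571-AS1 were called with their sense neighbours, and the strand setting of the counting is not stated.

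Genes on chromosome 12 between 80 and 90 Mb moved the other way. Of 20 protein-coding genes tested there 10 were higher in MSTRG.4401.1 KO, against 1 in MSTRG.2513.6 KO, with a median of -1.09, the lowest among the 291 windows of 10 Mb with at least 10 such genes. SLC6A15, a transporter of neutral amino acids in brain, was at 0.125, 0 and 0 CPM in MSTRG.2513.6 KO, against 18.5, 14.8 and 16.7 CPM for MSTRG.4401.1 KO (-8.24, standard error 0.687). LIN7A, a scaffold protein of polarised membranes, was at 0, 0.14 and 0.235 against 25.8, 23.6 and 23.2 CPM (-7.53, standard error 0.607). ACSS3, a mitochondrial acyl-CoA synthetase, had 0 counts against 3.102, 4.26 and 4.15 CPM, at least 70.4-fold higher. RASSF9, ALX1, LRRIQ1, PTPRQ, TMTC2 and the NTS gene described above made up most of the rest of the run, while CCDC59, METTL25, CEP290 and ATP2B1 lay among or beside them without being called. KITLG, the ligand of the receptor KIT, went the opposite way at 30.2 to 50.1 against 13.4 to 17.7 CPM (1.63, standard error 0.223). The limits of 80 and 90 Mb were set after the values were seen.

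**Figure D3:**
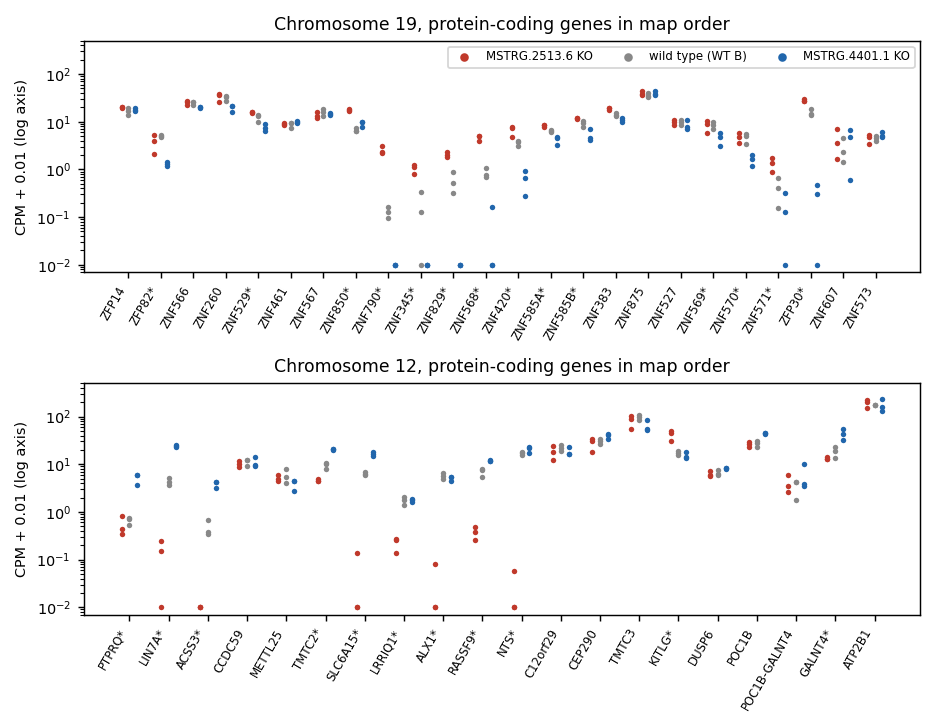
CPM plus 0.01 on a log axis for the protein-coding genes of 2 stretches in map order, 1 point per library, with red for MSTRG.2513.6 KO, blue for MSTRG.4401.1 KO, grey for wild-type WT B and an asterisk on called genes. On chromosome 19 the blue points lie at 0 and the grey points below 1 CPM at ZNF790, ZNF345 and ZNF829, where the red points are highest, and on chromosome 12 the red points drop at genes such as SLC6A15 while neighbours such as CCDC59 are not called.

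A broad and smaller shift covered the distal part of the long arm of chromosome 9. Of 388 protein-coding genes that start beyond 85 Mb, 335 (86.3%) had a positive log2(fold change), against 63.5% of 13769 genes on other chromosomes. Their median was 0.83, with quartiles of 0.34 and 1.17, where genes on other chromosomes had a median of 0.21 and the 192 genes on the rest of chromosome 9 a median of 0.05. There were 143 genes called higher in MSTRG.2513.6 KO, against 7 in MSTRG.4401.1 KO. The former are 36.9% of the genes there, where the share was 7.47% on other chromosomes and 5.73% on the rest of chromosome 9. The highest median of a window of 10 Mb outside chromosome 9 was 0.587. On chromosome 9 the windows that start at 80, 90 and 100 Mb had medians of 0.665, 0.589 and 0.574. Those from 90 and 100 Mb thus did not stand clear of windows elsewhere. The windows from 110 Mb to the end had medians of 1.04, 0.81 and 0.87. Measured from the mean of the wild-type libraries after normalisation on protein-coding genes, the genes beyond 85 Mb lay at medians of 0.20, 0.22 and 0.25 in S17, S18 and S19 and at -0.44, -0.30 and -0.32 in S23, S24 and S25. The MSTRG.2513.6 KO libraries were thus all above wild type and the MSTRG.4401.1 KO libraries all below it. The boundary of 85 Mb was set after the values were seen, and no cause of the shift was tested. Genes in it with much larger differences were ABCA1, the exporter of cholesterol to lipoproteins, at 140.5, 156 and 142 against 3.31, 3.49 and 4.002 CPM (5.48, standard error 0.167), and OLFM1, a secreted olfactomedin, at 20.3, 21.9 and 18.3 against 0.542, 0.543 and 0.267 CPM (5.61, standard error 0.274). GOLM1, a Golgi membrane protein, was at 118 to 156 against 22.6 to 31.7 CPM, and S1PR3, a receptor for sphingosine 1-phosphate, at 179 to 215 against 41.3 to 52.2 CPM. These 4 had an adjusted p of 1.62e-06, 1.04e-05, 7.11e-05 and 4.73e-05 in the edgeR quasi-likelihood test after Benjamini-Hochberg correction.

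**Figure D4:**
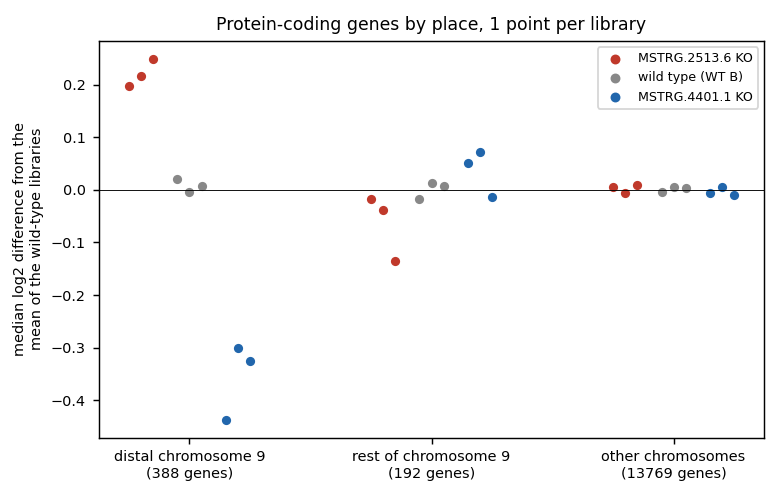
Median log2 difference of protein-coding genes from the mean of the 3 wild-type libraries on the y axis, for distal chromosome 9, the rest of chromosome 9 and all other chromosomes, with 1 point per library (red MSTRG.2513.6 KO, grey wild type, blue MSTRG.4401.1 KO). On distal chromosome 9 the red points lie at 0.20 to 0.25 and the blue points at -0.44 to -0.30, and elsewhere the medians lie within 0.14 of 0.

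The called genes of the mesenchymal state were mostly higher in MSTRG.2513.6 KO. Of 34 genes tested 17 were higher in MSTRG.2513.6 KO, against 2 in MSTRG.4401.1 KO, with a median of 1.09, and 14 to 19 were higher in MSTRG.2513.6 KO over the 16 alternatives. THBS1, the matricellular glycoprotein thrombospondin-1, was at 213, 220.1 and 206 CPM against 62.6, 50.7 and 50.7 CPM (2.11, standard error 0.136). FBN1, the microfibril protein fibrillin-1, was at 60.2, 70.9 and 49.2 against 10.6, 13.5 and 11.6 CPM (2.48, standard error 0.184). COL5A1, a fibrillar collagen chain, was at 154, 190.2 and 197 against 50.5, 53.8 and 42.9 CPM (2.02, standard error 0.136), and it lies on distal chromosome 9. All 3 matrix genes were more than 2 log2 units apart with no overlap between groups. ITGB3, the integrin beta 3 subunit, was at 17.6 to 21.6 against 1.49 to 3.49 CPM. The matrix protein gene SPARC, at 2.47 to 2.92 against 0 to 0.151 CPM, and the factor SNAI2, at 0.578 to 1.11 against 0 to 0.0602 CPM, were also higher in MSTRG.2513.6 KO, at low levels. INHBA and ZEB2 were the 2 genes called the other way. INHBA lost its call under 3 of 15 alternatives. ZEB2, a repressor of E-cadherin, was at 10.02, 10.1 and 8.54 against 25.7, 20.4 and 21.1 CPM (-1.08, standard error 0.171). ZEB2 missed the fold threshold with DESeq2 (-0.99) and without S23 (-0.98). Vimentin (VIM) and N-cadherin (CDH2), with 0.83 and 1.00, did not pass the fold threshold.

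Matrix-cutting enzymes and their inhibitors and the targets of YAP went partly the same way. Of 25 proteases and inhibitors tested 7 were higher in MSTRG.2513.6 KO, against 3 in MSTRG.4401.1 KO, with a median of 0.53 (4 to 8 and 2 to 4 over the alternatives). Such ranges cover the 16 alternatives that kept both call thresholds. MMP2, a gelatinase, was at 5.98, 7.42 and 6.505 against 0.151, 0.155 and 0.343 CPM (5.08, standard error 0.361), and TIMP2, an inhibitor of it, at 234, 251 and 209 against 60.8, 47.3 and 44.3 CPM (2.33, standard error 0.158). MMP14, the membrane-bound activator of MMP2, was opposite at 2.25, 1.71 and 2.74 against 7.71, 13.2 and 10.5 CPM (-2.09, standard error 0.278). Enzyme and activator therefore differed in opposite directions. YAP and TAZ are coactivators that answer to cell spreading and tension. Of 23 of their targets 8 were higher in MSTRG.2513.6 KO, against 1 in MSTRG.4401.1 KO (median 0.56), but only 3 passed when protein-coding genes alone were fitted. MYOF, a membrane repair protein, was at 844, 683 and 748 against 243, 213 and 181 CPM (1.99, standard error 0.163), and AXL, a receptor tyrosine kinase, at 474, 477 and 442 against 183, 157 and 179 CPM (1.57, standard error 0.141). DLC1, a GTPase-activating protein, was the member higher in MSTRG.4401.1 KO, at 7.79 to 9.64 against 37.05 to 39.5 CPM.

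Genes of the epithelial state were called in both directions. Of 30 tested 7 were higher in MSTRG.4401.1 KO, against 4 in MSTRG.2513.6 KO (median -0.15). CDH1, the junction protein E-cadherin, was at 22.9, 25.4 and 21.1 CPM against 144, 115 and 138 CPM (-2.37, standard error 0.155). DSC2, a desmosomal cadherin, was at 3.005, 2.48 and 2.03 against 17.4, 13.3 and 14.2 CPM, and CGN, the tight junction protein cingulin, at 3.54, 3.65 and 4.47 against 17.9, 17.5 and 17.8 CPM (-2.05, standard error 0.176). E-cadherin was more than 4 times as high in the lowest MSTRG.4401.1 KO library as in the highest MSTRG.2513.6 KO library. On the other side were EHF, an epithelial ETS factor, with 2.24 (standard error 0.396), PKP3, a desmosomal plakophilin, with 1.39 (standard error 0.259), and the protease inhibitor SPINT2 with 1.26 (standard error 0.233). EPCAM was called at -1.06, but fell inside the fold threshold with DESeq2 (-0.96), without S18 (-0.96) and without S24 (-0.93). The keratins divided, with 5 of 12 higher in MSTRG.2513.6 KO, against 3 in MSTRG.4401.1 KO. KRT19 was at 42.3, 48.5 and 36.7 against 5.93, 2.56 and 3.81 CPM (3.51, standard error 0.295), and KRT18, a main keratin of simple epithelia, at 1369, 1411 and 1166 against 4157, 2912 and 3481 CPM (-1.27, standard error 0.195).

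The called genes of the liver-like secreted programme were mostly higher in MSTRG.4401.1 KO. Of 37 genes tested 15 were higher in MSTRG.4401.1 KO, against 2 in MSTRG.2513.6 KO, with a median of -0.94, and 13 to 18 were higher in MSTRG.4401.1 KO over the alternatives. Among the transcription factors, HNF4A was at 33.3 to 34.9 against 94.6 to 112 CPM (-1.48, standard error 0.134), and ONECUT1 at 0.813 to 1.502 against 12.5 to 13.99 CPM (-3.33, standard error 0.279). Both factors were higher in each MSTRG.4401.1 KO library than in any MSTRG.2513.6 KO library. Among secreted products, the coagulation genes F5 and F7 (log2(fold change) -6.51 and -3.02), the fibrinogen genes FGA, FGB and FGG (-1.74, -3.22 and -1.43), APOH (-2.86) and ITIH2 (-4.06) were higher in MSTRG.4401.1 KO. TM4SF4, a membrane protein of liver and pancreas, was at 5.82, 5.502 and 4.94 against 55.2, 33.1 and 42.9 CPM (-2.87, standard error 0.217). The strongest exception was CPS1, the first enzyme of the urea cycle and a known A549 gene, at 408, 437 and 403 CPM in MSTRG.2513.6 KO, against 20.4, 17.3 and 15.9 CPM for MSTRG.4401.1 KO (4.68, standard error 0.152). AMBP, the other exception, was at 7.84 to 8.45 against 1.02 to 1.63 CPM and lies on distal chromosome 9. The summed level of the list was 600.5 to 638 CPM over the MSTRG.2513.6 KO libraries, 451 to 522 CPM over the MSTRG.4401.1 KO ones, a sum to which CPS1 contributed most in MSTRG.2513.6 KO.

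**Figure D5:**
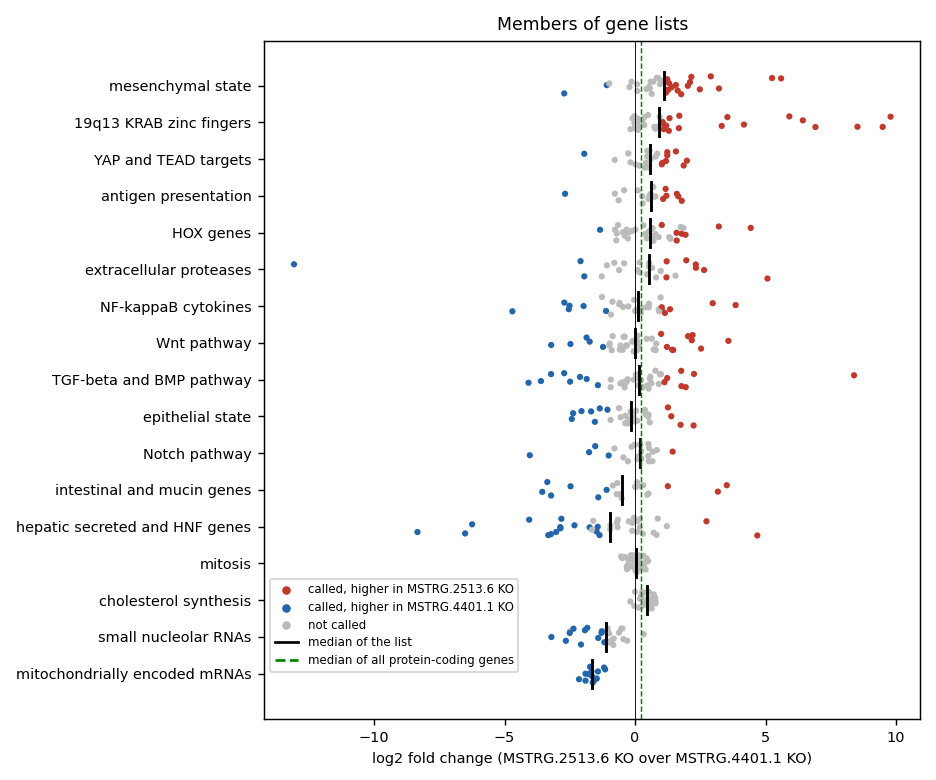
Log2(fold change), MSTRG.2513.6 KO over MSTRG.4401.1 KO, of each tested member of 17 gene lists, with 1 point per gene, called genes coloured by direction, a black bar at the list's median and a green dashed line at the median of all protein-coding genes, 0.22. The mesenchymal and zinc finger lists lie to the right, the hepatic list to the left, and every mitochondrially encoded mRNA is on the left.

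Immediate early and ERK output genes were called in both directions. Of 36 tested 8 were higher in MSTRG.2513.6 KO, against 3 in MSTRG.4401.1 KO. The median was 0.52, and the alternatives gave 4 to 9 on the MSTRG.2513.6 KO side. JUN, a subunit of AP-1, was at 55.8, 54.9 and 53.4 against 23.5, 22.02 and 18.7 CPM (adjusted p = 0.000157, edgeR quasi-likelihood test, corrected after Benjamini-Hochberg), and IER5 at 134, 132 and 128 against 41.6, 29.5 and 39.1 CPM (1.98, standard error 0.165). FOS, the partner of JUN in AP-1, was opposite at 2.22, 2.83 and 2.23 against 30.7, 15.2 and 28.9 CPM (-3.23, standard error 0.303), as were EGR1 (-1.55, standard error 0.308) and the ETS factor ETV1 (-2.57, standard error 0.26).

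Inflammatory genes were called in both directions as well. Of 32 NF-kappaB cytokine genes 6 were higher in MSTRG.2513.6 KO, against 6 in MSTRG.4401.1 KO, at a list median of 0.13 (3 to 9 and 4 to 8 over the alternatives). CSF1, the growth factor of macrophages, was at 156, 165 and 167 CPM against 24.6, 23.8 and 20.1 CPM (2.98, standard error 0.126). The neutrophil chemokine CXCL8 was at 2.003, 1.502 and 0.963 against 13.5, 11.4 and 7.97 CPM (-2.71, standard error 0.325), and PTGS2, the inducible cyclooxygenase, at 9.81, 9.76 and 5.35 against 68.9, 49.03 and 40.7 CPM (-2.51, standard error 0.283). CXCL8 and PTGS2 were thus high in MSTRG.4401.1 KO, as was CXCL1 (-2.54, standard error 0.345), and CSF1 in MSTRG.2513.6 KO. Of 19 antigen presentation genes 6 were higher in MSTRG.2513.6 KO, against 1 in MSTRG.4401.1 KO, at a list median of 0.60 (3 to 6 higher in MSTRG.2513.6 KO over the alternatives). PSMB8, a subunit of the immunoproteasome, was at 14.6 to 18.9 against 4.54 to 5.78 CPM (1.79, standard error 0.189), and NLRC5, the activator of MHC class I genes, at 17.5 to 26.2 against 5.91 to 9.42 CPM (1.66, standard error 0.239). TAP1, the peptide transporter, was called (1.17), but missed the fold threshold with upper-quartile factors (0.97) and when protein-coding genes alone were fitted (0.94). HLA-DMB, of the class II pathway, was opposite with -2.68 (standard error 0.303). Of 32 interferon response genes 7 were higher in MSTRG.2513.6 KO, among them HERC5 (1.65, standard error 0.247) and IFIT3 (1.59, standard error 0.266), and 2 in MSTRG.4401.1 KO, OAS1 (-1.84, standard error 0.194) and IFI27 (-1.49, standard error 0.269). With upper-quartile factors, with protein-coding genes alone and without S18, 4 rather than 7 interferon genes were called higher in MSTRG.2513.6 KO.

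Secreted signalling pathways differed in both directions. In the Wnt pathway 9 of 38 genes were higher in MSTRG.2513.6 KO, against 5 in MSTRG.4401.1 KO, at a list median of 0.01. The count of 5 became 8 with upper-quartile factors, with protein-coding genes alone and without S19. Among ligands and antagonists, WNT5A, a ligand of the noncanonical branch, was at 11.1, 10.5 and 10.3 against 1.14, 1.28 and 0.534 CPM (3.58, standard error 0.3), and the antagonist SFRP1 at 95.3, 89.1 and 85.1 against 20.4, 14.4 and 16.8 CPM (2.53, standard error 0.166). The receptor FZD2 was at 147 to 166 against 32.2 to 53.5 CPM. RNF43, a ubiquitin ligase that removes Wnt receptors, was at 7.01, 8.94 and 9.99 against 99.2, 85.3 and 80.5 CPM (-3.21, standard error 0.161), and AXIN2 at 6.53, 7.65 and 8.84 against 32.1, 32.6 and 27.2 CPM (-1.86, standard error 0.159). The feedback gene NKD1 was called in the same direction as RNF43 and AXIN2, but NOTUM, a secreted Wnt inhibitor that is also a feedback target, was called higher in MSTRG.2513.6 KO.

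In the TGF-beta and BMP pathway 7 of 41 genes were higher in MSTRG.2513.6 KO, against 8 in MSTRG.4401.1 KO (median 0.14). The BMP ligands BMP4, at 8.08, 10.4 and 8.58 against 46.8, 39.6 and 42.5 CPM (-2.11, standard error 0.158), and BMP7, at 0.751, 1.08 and 0.321 against 10.7, 7.71 and 10.98 CPM (-3.61, standard error 0.414), were higher in MSTRG.4401.1 KO, as were BMP2 and the BMP targets ID1 and ID4 (-2.49, standard error 0.27). The antagonist GREM1 was the member most raised in MSTRG.2513.6 KO. The TGF-beta genes LTBP2, which stores the latent ligand in the matrix, with 2.26 (standard error 0.127), and PMEPA1, a feedback target, with 1.94 (standard error 0.163), were also higher in MSTRG.2513.6 KO. In the Notch pathway 4 of 23 genes were higher in MSTRG.4401.1 KO, against 1 in MSTRG.2513.6 KO (median 0.18). The receptor NOTCH3 was at 118, 141 and 174 against 385, 404 and 573 CPM (-1.53, standard error 0.216) and the target HES1 at 4.66, 4.297 and 4.41 against 13.7, 15.9 and 20.2 CPM (-1.76, standard error 0.218). LFNG, a glycosyltransferase that modifies Notch receptors, was higher in MSTRG.2513.6 KO (1.44, standard error 0.254).

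Lineage genes were called in both directions. Of 21 intestinal and mucin genes 6 were higher in MSTRG.4401.1 KO, against 3 in MSTRG.2513.6 KO (median -0.51), and over the alternatives 4 to 7 and 0 to 3. MUC5B, a gel-forming airway mucin, was at 11.9, 19.6 and 20.1 against 187, 257 and 220.1 CPM (-3.56, standard error 0.224), and VIL1, the brush border protein villin, at 0.642 to 1.22 against 4.15 to 6.94 CPM (-2.47, standard error 0.328). CDX2, the intestinal homeobox factor, was higher in MSTRG.2513.6 KO but low, at 0.663 to 0.908 against 0 to 0.233 CPM. Markers of the colon line HCT116, which was used elsewhere in the series, overlap with this list. VIL1, KRT20 and CDX2 are called members of both, so the HCT116 markers are not a separate set. Of 7 tested 4 were higher in MSTRG.4401.1 KO, against 1 in MSTRG.2513.6 KO. The summed level of the markers was 35.1 to 43.01 CPM over the MSTRG.2513.6 KO libraries, 120.0 to 147 CPM over the MSTRG.4401.1 KO ones. RNF43 made up most of that sum in MSTRG.4401.1 KO, and 4 of the 13 markers, CDKN2A among them, had 0 counts in all 6 libraries. The call of 4 became 2 with DESeq2 and without S18. Among HOX genes 7 of 34 were higher in MSTRG.2513.6 KO, against 1 in MSTRG.4401.1 KO (median 0.58), among them HOXC13 at 12.3 to 13.2 against 4.15 to 5.18 CPM and HOXB13 at 3.92 to 5.71 against 1.24 to 1.596 CPM. Only 3 were called when 10 counts were required in every library, a filter that also drops genes near 0 in 1 group.

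Among lung genes, CAV1, the coat protein of caveolae, was at 699, 597 and 414 against 207, 146 and 180.3 CPM (1.83, standard error 0.235), and 3 of 17 genes were higher in MSTRG.2513.6 KO, against 3 in MSTRG.4401.1 KO (1 to 3 and 1 to 4 over the alternatives). The airway factors TP63 and SOX2 were higher in MSTRG.2513.6 KO at low levels (2.55 to 3.37 against 0.267 to 1.08 CPM and 1.498 to 1.96 against 0 to 0.116 CPM). Among neuronal and synaptic genes 7 of 29 were higher in MSTRG.2513.6 KO, against 5 in MSTRG.4401.1 KO (6 to 8 and 2 to 7 over the alternatives). STMN3, a microtubule regulator, was at 45.9, 42.4 and 51.4 against 6.32, 7.83 and 6.44 CPM (2.91, standard error 0.156). The synaptic adhesion gene NRXN3 was at 1.05 to 1.305 against 10.3 to 16.2 CPM (-3.47, standard error 0.24), and CNTNAP2, of the same superfamily, had 0 counts against 8.94, 4.07 and 4.802 CPM, at least 109-fold higher in MSTRG.4401.1 KO. Cancer-testis genes are silent in most body cells. Of 8 tested, 3 were higher in MSTRG.4401.1 KO, all of the MAGEA family, a count that ran from 0 to 4 over the alternatives. MAGEA3 was at 0 to 0.0856 against 5.66 to 8.49 CPM and MAGEA10 at 0 to 0.14 against 0.301 to 0.426 CPM, and since MAGEA3 and MAGEA6 are near-identical, reads could have been split between them. MAGEA10 lost its call under 8 of 14 alternatives.

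Some imprinted genes and the histone gene H1-5 differed between the groups. Of 34 imprinted genes 4 were higher in MSTRG.2513.6 KO, against 5 in MSTRG.4401.1 KO (2 to 5 and 4 to 9 over the alternatives). The shares were 5.75% and 10.9% over all genes tested, 8.24% and 6.54% over protein-coding genes, so these small counts do not set the list apart. MEG3 and MEG8, noncoding RNAs of the same cluster on chromosome 14, were at 25.3, 27.4 and 38.3 against 2.62, 5.27 and 3.73 CPM (3.11, standard error 0.279) and at 23.4, 22.1 and 19.8 against 3.37, 1.98 and 1.601 CPM (3.38, standard error 0.277), and RTL1, which lies between them, was at 3.598 to 4.77 against 0.152 to 1.16 CPM. On chromosome 11 the neighbours IGF2 and H19 went opposite ways, with IGF2, a growth factor, at 7.58, 8.28 and 8.02 against 0.632, 1.395 and 0.191 CPM (3.59, standard error 0.498) and the noncoding H19 at 1.08, 1.19 and 1.24 against 5.15, 5.27 and 5.87 CPM (-2.08, standard error 0.226). H1-5, a linker histone, was at 30.9, 27.6 and 22 CPM in MSTRG.2513.6 KO and had 1 count in S23 and none in S24 and S25. The ratio of its CPM was 2329 (exact 95% interval 418 to 92020, counting error only). Of the replication-dependent histones 54 of 58 were not called, with H3C6 the other member higher in MSTRG.2513.6 KO and a summed level of 7497 to 9046 CPM against 5486 to 9042 CPM. Metallothioneins, which bind zinc and copper, were higher in MSTRG.2513.6 KO for 3 of 7 genes, with MT2A at 46.6, 39.5 and 47.1 against 12.8, 8.95 and 7.13 CPM (2.35, standard error 0.21), MT1X with 1.52 (standard error 0.255) and MT1A at 1.904 to 3.05 CPM against 0 counts.

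Metabolic genes were called in both directions. In glucose use, the transporter SLC2A1 was at 335, 369.5 and 358 against 122, 101 and 118 CPM (1.78, standard error 0.139), and the related transporter SLC2A3 was opposite at 14.3, 14.8 and 13.2 against 79.8, 84.3 and 95.1 CPM (-2.47, standard error 0.151). The hypoxia and glycolysis list of 38 genes held 5 higher in MSTRG.2513.6 KO, against 3 in MSTRG.4401.1 KO. The first count was 3 with upper-quartile factors and without S24, and with protein-coding genes alone the counts were 3 and 5. The shares over all protein-coding genes were 8.24% and 6.54%, and the list was not tested against them. Of 22 fatty acid genes 5 were higher in MSTRG.2513.6 KO, DGAT2, an enzyme of triglyceride synthesis, among them (2.34, standard error 0.268), and 2 in MSTRG.4401.1 KO, MLXIPL, the carbohydrate response factor ChREBP, among them (-2.62, standard error 0.264). With protein-coding genes alone 2 rather than 5 of the fatty acid genes were called higher in MSTRG.2513.6 KO. Of 34 NRF2 targets 3 were higher in MSTRG.2513.6 KO, with HMOX1, heme oxygenase, at 156 to 199.7 against 60.9 to 90.6 CPM, and 2 in MSTRG.4401.1 KO, with UGT1A6 at 0.626 to 0.821 against 7.597 to 8.07 CPM. These counts are near the shares over all protein-coding genes, 8.24% and 6.54%. Of 76 ribosomal protein genes 3 were called, and 5 with DESeq2 or without S23. With upper-quartile factors or with protein-coding genes alone 1 was called, and RPL35 lost its call. RPL7A and RPL35, of these 3, lie on distal chromosome 9, as does NDUFA8, 1 of the 2 called among 68 oxidative phosphorylation genes. HSPA5, SEC61B and ERP44, the 3 called among 25 genes of the unfolded protein response, lie there too. RPL7A was at 1073, 1040 and 968 against 506, 328 and 442 CPM (1.41, standard error 0.191), and HSPA5, the chaperone BiP, at 619.8, 616 and 573 against 297, 222 and 275 CPM (1.33, standard error 0.16). ERP44 lost its call under 4 of 16 alternatives. In all, 12 called members of the lists, in either direction, lie on that stretch.

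No gene was called in the mitosis list (38 tested, median 0.04), the cholesterol synthesis list (25 tested, median 0.46), the snoRNA host genes (24 tested, median -0.25) or the replication-independent histones (11 tested, median 0.26). At an unadjusted p under 0.05 of the same edgeR test, 5, 14, 10 and 3 genes of these lists differed, and DESeq2 and the edgeR exact test called 0 in each. ESPL1, which encodes separase, had -0.54 (standard error 0.153), and DHCR7, the last enzyme of cholesterol synthesis, 0.76 (standard error 0.15). Without S19, 1 mitotic gene was called higher in MSTRG.4401.1 KO. So was 1 replication-independent histone without S17, S18 or S24, with upper-quartile factors and with protein-coding genes alone. Of 54 chromatin modifiers 3 were called, the DNA methyltransferase gene DNMT3B higher in MSTRG.4401.1 KO at 17.4, 19.8 and 21.6 against 53.03, 67.7 and 60.03 CPM (-1.48, standard error 0.146), and BMI1 (1.27, standard error 0.415) and SIRT1 (1.17, standard error 0.217) higher in MSTRG.2513.6 KO. BMI1 was no longer called without S17, S24 or S25, and SIRT1 fell inside the fold threshold with upper-quartile factors (0.96) and with protein-coding genes alone (0.92). In the DNA replication list 2 of 40 genes were higher in MSTRG.2513.6 KO (0 to 3 over the alternatives), and in the ATF4 and amino acid stress list 2 of 29 (2 to 3). Of 23 heat shock chaperones 1 was called in each direction (0 to 2 and 0 to 1). Of 47 clustered protocadherins 6 were higher in MSTRG.2513.6 KO (3 to 10), against 2 in MSTRG.4401.1 KO, which became 0 without S17, S18, S24 or S25. Of 9 nuclear retained lncRNAs only MEG3 was called.

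The called RNAs of the mitochondrial genome mRNA list and of the small RNA lists were all higher in MSTRG.4401.1 KO. All 13 mitochondrially encoded mRNAs were called, with a median of -1.64. MT-CO2, a subunit of cytochrome c oxidase, was at 753, 577 and 796 against 1963, 4941 and 3481 CPM (-2.15, standard error 0.324), so S24 and S25 lay above S23. Of 24 small nucleolar RNAs 11 were higher in MSTRG.4401.1 KO (median -1.11), a count that ran from 4 without S24 to 18 without S19. Of 18 other small RNAs 7 were higher in MSTRG.4401.1 KO, 4 without S18 or S24 and 11 without S19 or with upper-quartile factors. SNORD3A, the U3 RNA of ribosome assembly, was at 27.7, 29.1 and 37.04 against 89.3, 274 and 181 CPM. The nuclear genes of oxidative phosphorylation did not share this direction, since 65 of 68 had a positive log2(fold change) with TMM scaling.

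The study's methods place a deleted sequence on chromosome 10 for A549 and another on chromosome 1 for HCT116, without naming the transcript of either, so where the deletions of both A549 groups lie is not known here. Of 8 genes next to these sequences that were tested 1 was higher in MSTRG.2513.6 KO, against 3 in MSTRG.4401.1 KO. On chromosome 1, NES, which encodes the intermediate filament nestin, was at 4.01, 3.27 and 3.702 against 1.78, 1.55 and 1.64 CPM (1.29, standard error 0.235), and BCAN (-0.43), HAPLN2 (-0.76) and CRABP2 (0.15) were not called. On chromosome 10, DKK1, a secreted inhibitor of Wnt signalling, was at 187, 180.2 and 155 against 527, 384 and 442 CPM (-1.23, standard error 0.167). PRKG1, a protein kinase activated by cyclic GMP, was at 1.82, 1.397 and 1.78 against 8.46, 8.64 and 4.802 CPM (-1.98, standard error 0.274), and its antisense gene PRKG1-AS1 at 3.99, 4.25 and 3.53 against 17.2, 14.8 and 11.3 CPM (-1.73, standard error 0.206). The 3 genes of chromosome 10 were higher in every MSTRG.4401.1 KO library than in any MSTRG.2513.6 KO library. LNCAROD, a long noncoding RNA of the same place, was at 0.767, 0.629 and 0.3 against 1.35, 1.16 and 1.26 CPM (-0.99, standard error 0.412, adjusted p = 0.106, edgeR quasi-likelihood test, corrected after Benjamini-Hochberg) and was called under 5 of 15 alternatives.

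The wild-type libraries place the differences, without a test. Of the 1446 genes higher in MSTRG.2513.6 KO, wild type lay between the knockouts for 1133 genes, nearer to MSTRG.2513.6 KO for 861 and nearer to MSTRG.4401.1 KO for 272, above both for 270 and below both for 43. Of the 2735 genes higher in MSTRG.4401.1 KO, it lay nearer to MSTRG.2513.6 KO for 1670, nearer to MSTRG.4401.1 KO for 463, below both for 532 and above both for 70. The shares between and nearer to MSTRG.2513.6 KO were thus 59.5% and 61.1%, and those nearer to MSTRG.4401.1 KO 18.8% and 16.9%. Over all 25161 genes tested these shares were 31.5% and 13.3%, so wild type leaned to MSTRG.2513.6 KO there as well. DPYSL3 (25.1 to 28.9 CPM in wild type) and VCAN (152 to 204 CPM) were well expressed in wild type and nearly absent in a knockout. NPY1R (0.425 to 1.11 CPM), KCNT2 (0.488 to 0.794 CPM) and PPARGC1A (1.497 to 1.72 CPM) were low in wild type, at 0 counts in MSTRG.2513.6 KO and expressed in MSTRG.4401.1 KO.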

How the data were processed

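RNA was sequenced from A549 libraries, and the authors deposited a table of whole-number counts per gene symbol for each sample. Per the submitters' processing notes, reads were trimmed with Trim Galore 0.6.6, checked with FastQC 0.11.9 and aligned to hg38 with HISAT2 2.2.1. The counting program, its strand setting and its treatment of reads that match several genes are not given in the sources used here, so counts of near-identical, overlapping and antisense genes are uncertain. Intervals cover counting error only.

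The deposited counts of the 6 libraries were filtered with filterByExpr, scaled by TMM and tested with the edgeR 4.0.16 quasi-likelihood test (R 4.3.3), with Benjamini-Hochberg adjustment over all 25161 genes tested. Genes with a false discovery rate below 0.1 and |log2(fold change)| above 1 were called. CPM was computed from the full library total. Gene positions and types came from GENCODE v44 on GRCh38 by symbol, which matched 73.5% of tested genes and 97.1% of those without a clone name, so medians by position cover protein-coding genes only. Promoters came from RefSeq.

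The text names the 10 called genes with the highest and the 10 with the lowest log2(fold change), given a mean log2 CPM of 2 or more, no overlap between groups, no clone name and no place on 4 lists of histone, mitochondrial and small RNAs, up to 3 called members per list and direction with the smallest adjusted p (2 members where none was called), and the neighbours of 2 deleted sequences that the study's methods place on chromosomes 1 and 10. Further list members, genes of the stretches on chromosomes 9, 12 and 19, NTRK3, VCAN, VIM and CDH2 were added after their values were seen. Some genes that the rule names are not reported here. The comparison and the lists were chosen with earlier results of these data known. The alternatives were DESeq2 1.42.0, the edgeR exact test, other scalings and filters, other thresholds, a fit with wild type, thinned counts, each library left out, and a fit of protein-coding genes alone.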

Additional observations from a re-analysis of the deposited data

How the results depend on the processing

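The counts of called genes and the median |log2(fold change)| stayed within 1.5 times the reported values under all alternatives except those named here. Without a fold threshold 9378 genes were called, 4988 higher in MSTRG.2513.6 KO and 4390 higher in MSTRG.4401.1 KO, as more genes can then pass. With protein-coding genes alone, chosen after seeing the data, fewer genes were tested and 2083 were called, 736 and 1347. When single libraries were left out the fits gave 3299 to 5140 called genes, 1307 to 1734 higher in MSTRG.2513.6 KO, 1986 to 3640 higher in MSTRG.4401.1 KO, and a median |log2(fold change)| of 0.49 to 0.618. Of 195 named genes tested, 37 changed their call under at least 1 of 16 alternatives, and none reversed. Calls of genes under about 10 counts per library are limited by depth, most of all in the smaller MSTRG.4401.1 KO libraries. No paired analysis was possible because the compared libraries share no replicate number.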
